A study of Mus musculus with 3 samples.

Results

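The sites described here were methylated cytosines called in both the germinal vesicle (GV) oocyte and the metaphase II (MII) oocyte, in genes that had no called site at all in the 1-cell embryo. They were found by the position of the site and the Ensembl identifier of the gene, and numbered 1705 sites in 1014 genes. The oocyte lists shared 12954 sites in 5387 genes, and the 3 lists of the series together held 40298 distinct sites in 8353 genes. The members were thus selected on measured values, namely presence in both oocyte lists and absence of the gene from the embryo list, so their number and every contrast with the embryo list are given as a description. The other shared sites served for comparison, and were 6145 sites that were also in the embryo list and 5104 sites that were missing from it while another site of their gene was there.

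5-methylcytosine (m5C) was measured by RNA bisulfite sequencing, in which unmethylated cytosine (C) is converted and read as T, so that the m5C level of a site is the share of unconverted reads. All animals were wildtype C57BL/6J mice of 7 to 8 weeks. By the labels, GV oocytes, which are fully grown and arrested before meiotic resumption, came from minced ovaries after priming with pregnant mare serum gonadotrophin (PMSG, 10 IU, 48 h). MII oocytes, which have matured and await fertilization, came from oviducts at 12 h after human chorionic gonadotrophin (hCG, 5 IU, following 10 IU PMSG). About 200 1-cell embryos were flushed at 24 h after hCG (5 IU, following 5 IU PMSG) from females mated with males of the same strain. The methods of the study describe hormone doses, RNA selection and conversion that differ in part from the labels. Each stage was 1 library of pooled cells, so stage and library cannot be told apart, and no value below has a replicate error.

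An oocyte stops transcribing before it matures, and the stored maternal mRNAs are translated, kept or degraded until the genome of the embryo is switched on. In mRNA, the methyltransferase NSUN2 methylates a C that is followed by guanines (G) at the foot of a hairpin (Type I sites), and NSUN6 methylates the first C of the motif CUCNA, often in the loop of a hairpin (Type II sites). The m5C of maternal mRNA can be bound by reader proteins and is known for its link to mRNA stability.

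The bases around the members that the results turn on are shown first, 10 on each side of the site, read 5′ to 3′ from the GRCm38 genome or the spliced transcript. The methylated C is in capitals, and at Type II sites the whole motif is. The first lines hold members named below for their depth, level, change or number of sites, and after them the oocyte gene Figla. Type II sites follow, and then a gene and its pseudogene with the same bases.
Eef1d (chr15:75901167, minus strand, CDS): auucuaugagCagaugaacgg
March7 (chr2:60234693, plus strand, CDS): ucuugaagcaCagggugacuc
Srrm2 (chr17:23808169, plus strand, CDS): agggcagagaCcagugguaac
Fzr1 (chr10:81370200, minus strand, CDS): augcaccagcCaggugacccg
Utp20 (chr10:88781003, minus strand, CDS): aucugagaguCaguauucgcc
Atrx (chrX:105899885, minus strand, CDS): ugaaccaaagCacagauaaaa
Lrp1 (chr10:127560113, minus strand, CDS): uggcgguguaCggagagcaca
Cdkn1c (chr7:143460203, minus strand, CDS): agacccaauuCcggaggugac
Med1 (chr11:98189229, minus strand, CDS): aaaauuuaacCagaacagacc
Heatr1 (chr13:12401138, plus strand, CDS): agccuagugaCgagaucugug
Glg1 (chr8:111156493, minus strand, 3′ UTR): uccccuuuggCgaguuugggc
Ptk2b (chr14:66154203, minus strand, CDS): gaaguuggcuCagcagaacgc
Figla (chr6:86017368, plus strand, CDS): uaggcucaagCgccugcccuc
Sh3glb2 (chr2:30345823, minus strand, CDS): gucuuggcccCUCCAgaagag
Etfb (chr7:43457629, plus strand, CDS): uggaccugacCUCCAaggucu
Slc25a31 (chr3:40709006, plus strand, CDS): cgaacgaaucCUCCAagaagc
Higd2a (chr13:54590352, plus strand, CDS): ccacggucuaCUCCAacccag
Rps27a (chr11:29547684, minus strand, CDS): ccaucacgcuCgagguugaac
Rps27a-ps2 (chr9:83409704, plus strand, exon of a pseudogene): ccaucacgcuCgagguugaac

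The Type I windows of March7, Fzr1, Lrp1 and Heatr1 show the G-rich stretch that follows the site in this class, while those of Atrx and Med1 are rich in A on both sides. The Type II windows share the CUCCA form of the motif.

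The genes without an embryo row were covered thinly in the oocytes. In the GV oocyte the median coverage of the 1705 sites was 62 reads (95% interval over sites 59 to 64), against 101 reads at shared sites whose gene was in the embryo list and 279 reads at shared sites that were themselves in the embryo list. In the MII oocyte the medians were 56, 81 and 242 reads in the same order. In all, 18.8% of the genes with a shared oocyte site had no embryo row. The share was 62.9% (193 of 307 genes) where the best site of the gene had 20 to 29 reads, taking the lower of both oocyte coverages, 27.4% (304 of 1109) at 50 to 99 reads and 12.1% (147 of 1214) at 100 to 199 reads. It was 4.08% (52 of 1276) at 200 to 499 reads and 0.629% (2 of 318) at 1000 reads or more, so that the share was lower in each deeper class. In pooled cells fewer cells that carry an mRNA cannot be told from less mRNA per cell.

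**Figure D1:**
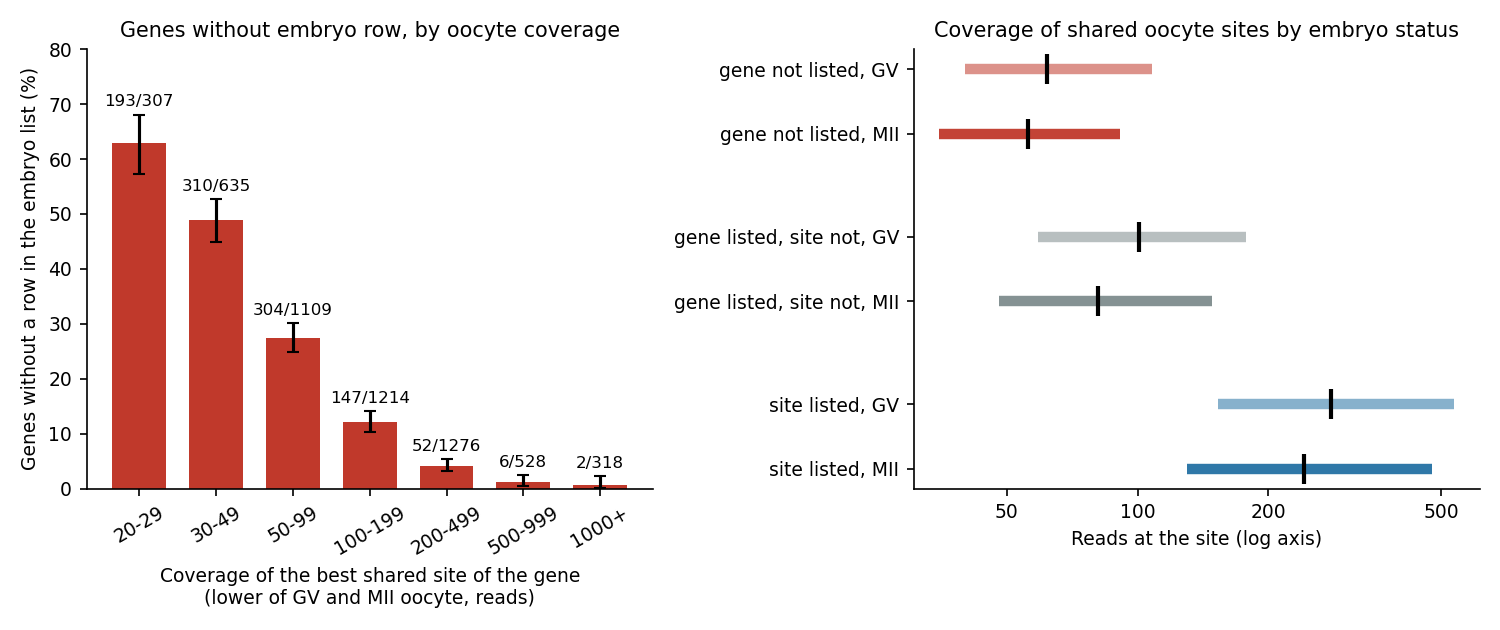
The bars on the left give the share of genes with a shared oocyte site that had no row in the embryo list, by the coverage of the best site of the gene, with 95% Wilson intervals and the number of genes; the lines on the right span the quartiles of the sites with the median marked, by oocyte stage and embryo status. The share goes down from 62.9% to 0.629%, and the sites of genes without an embryo row lie at the lowest coverage in both oocytes.

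The absence of a gene from the embryo list does not show that its mRNA was unmethylated or gone, because a list holds called sites alone. A site enters a list at 20 reads, a level of 10% and 5 unconverted reads, and genes that resist conversion were left out by the authors. Which of these held for a given member was not tested. The embryo values also differ from those of a further list that accompanies the study, unlike the oocyte values, so absence is meant for the deposited list alone. The embryo list was also the shallowest, with 2616279 reads at 24996 sites (median 58), against 4475058 reads at 15910 sites (median 121) in the GV oocyte and 5285011 reads at 20694 sites (median 107) in the MII oocyte. Just outside the rule stood 845 genes with exactly 1 embryo row. Their best oocyte site had a median of 86 reads, against 50 reads in the genes without an embryo row and 185 reads in all genes with one, and their single embryo row had a median of 36 reads.

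Most member genes had 1 site. A single shared site was found in 653 genes, 198 genes had 2 and 163 had 3 or more, of which 42 had 5 or more. The more shared sites a gene had, the less often it was missing from the embryo list, from 27.2% of the genes with 1 shared site to 6.54% of those with 5 to 9. The member genes held another 476 sites of the GV oocyte list and 811 of the MII oocyte list that the other oocyte list did not have. By the annotation, 966 member genes were protein coding, 22 were pseudogenes and 25 were long noncoding genes. Pseudogenes were few among all genes with a shared site (37), and 22 of these 37 had no embryo row. Of the 82 long noncoding genes with a shared site, 25 had no embryo row. The share over all genes was 18.8%. Coverage was not compared between these gene types, so the counts are not read as their traits. The members lay on every autosome and on the X chromosome, from 14.5% of the genes on chromosome 6 to 23.9% on the X chromosome.

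A few member genes were deeply covered. Only 8 of the 846 genes with a site of 500 reads or more in both oocytes had no embryo row. The deepest was Eef1d, a subunit of the translation elongation factor complex, with 2161 GV and 1745 MII reads. Its m5C level was 13.5% (95% Wilson interval 12.1% to 15%) in the GV and 13.8% (12.2% to 15.4%) in the MII oocyte. March7, a membrane-associated ubiquitin ligase whose symbol was deposited as a date, followed with 1734 and 1044 reads, and its level rose from 16.1% to 22.8% (Fisher's exact test, two-sided, Benjamini-Hochberg adjusted p = 0.000244 over all shared sites). Srrm2, a scaffold of nuclear speckles that takes part in splicing, had 1032 and 795 reads at levels of 11.1% and 11.6%.

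Ndufa2, a subunit of respiratory complex I, had 1289 GV and 848 MII reads, and stood out among the deepest genes by its level, 34.1% and 37.1%. The levels of Farp1 were 13.8% and 16.5%. Ppp1r12a, the myosin-targeting subunit of protein phosphatase 1, had 10.2% and 14.6%, and Gins4, a part of the replicative helicase, had 10.5% and 14.4%. Calcoco1, a coiled-coil protein, had 12.9% and 14.2%. Farp1, Ppp1r12a, Gins4 and Calcoco1 lay close to the level limit of the lists, and none of these passed the test between the oocyte libraries.

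The levels of the members spanned the whole range that the lists allow. The median m5C level was 23.1% (22% to 23.9%) in the GV oocyte and 27% (26.1% to 28.4%) in the MII oocyte, with quartiles of 15.7% and 36.4%, and of 18.8% and 42.9%. The medians of all shared sites were 20.9% and 26.5%. The level was highest at the thinnest sites. The limit of 5 unconverted reads sets the lowest level that a site under 50 reads can have. The members' GV median was 20.6% (19.1% to 21.6%) in the class from 50 reads. In the class from 100 reads it was 18.2% (17% to 20.5%), and these intervals overlapped. What made the level differ with coverage was not tested. Members with a lower coverage of 20 to 29 reads had medians of 30.2% and 37.5%, against 30.6% and 37.5% at all shared sites of that coverage. At 100 to 199 reads the medians were 18.2% and 23.5% for members and 19% and 25.2% for all shared sites. Within classes of equal coverage the members' GV medians stood within 1 point of those of all shared sites. The MII medians were equal at 20 to 29 reads, and the members' were lower in each deeper class. From 200 reads on, the MII median was 22.1% for members and 25.2% for all shared sites.

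The strongest members were methylated at most of their reads. The intervals of Atrx, a chromatin remodeler of heterochromatin, overlapped between the stages, with 92.1% (87.2% to 95.3%, 178 reads) in the GV oocyte and 90.7% (84.4% to 94.6%, 129 reads) in the MII oocyte. A 3′ UTR site of Itgb3, the integrin beta 3 subunit, had 94.4% and 87.6%. The site of Utp20, a factor of ribosomal RNA processing, had 87.6% and 94.5%, and one of Ccdc73 had 82.8% and 91.7%. Fzr1 encodes the CDH1 activator of the anaphase-promoting complex, which keeps GV oocytes in meiotic arrest by degrading cyclin B. Its site combined depth and level, with 80.6% of 619 reads (77.3% to 83.5%) in the GV and 86.3% of 388 reads (82.6% to 89.4%) in the MII oocyte. Kif13b, a kinesin motor, had 82.7% and 80.4%. None of these passed the test between the oocytes. Sites at 50% or more in both oocytes made up 11.3% of the members (192 sites) and 11.2% of all shared sites. At 100 reads or more in both oocytes these shares were 7.60% (25 sites) and 10.9%. At this depth they were 7.65% where the gene alone was in the embryo list and 12.3% where the site was.

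Most members had a higher level after maturation. The level was higher in the MII oocyte at 1148 sites, lower at 549 and equal at 8. The higher sites were 67.3% of the members, against 77% of all shared sites. The share was 71.4% where the gene alone was in the embryo list and 84.3% where the site was. At 100 reads or more in both oocytes it was 74.5% for members and 83.5% for all shared sites. The median difference of the members was 3.76 points (3.09 to 4.29). The median differences of the comparison sites were 3.95 points where the gene alone was in the embryo list and 5.70 points (5.52 to 5.92) where the site was. Fisher's exact test, applied to the GV and MII reads of each site and adjusted over all shared sites, called 104 members in 97 genes higher in the MII oocyte, which is 6.10% against 19.6% of all shared sites, and 28 lower, which is 1.64% against 0.965%. At an unadjusted p under 0.05 there were 214 and 54 members. The share over all shared sites was not counted at this threshold, so such unadjusted counts are not read as a result. With all reads divided by 5, as if each molecule had been read 5 times, 0 members were called in either direction by the same exact test (4 and 4 at an unadjusted p under 0.05), so every rise and fall named below, at deep sites too, takes the reads as independent molecules, which was not tested. The test has less power at thin sites. At 100 reads or more in both oocytes, 13.7% of the members were called higher (45 of 329, with the adjustment kept over all shared sites). This stood against 18% and 35.4% of the comparison sites and 29.8% of all shared sites. Called lower were 1.52% of the members (5 sites), against 0.659% and 1.01% of the comparison sites and 0.938% of all shared sites. The median difference at this depth was 3.76 points (2.85 to 4.80) for members, 3.8 points (3.53 to 4.16) where the gene alone was in the embryo list and 5.71 points (5.54 to 5.94) where the site was. The test compares the libraries and not the stages, since there was 1 library of each.

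**Figure D2:**
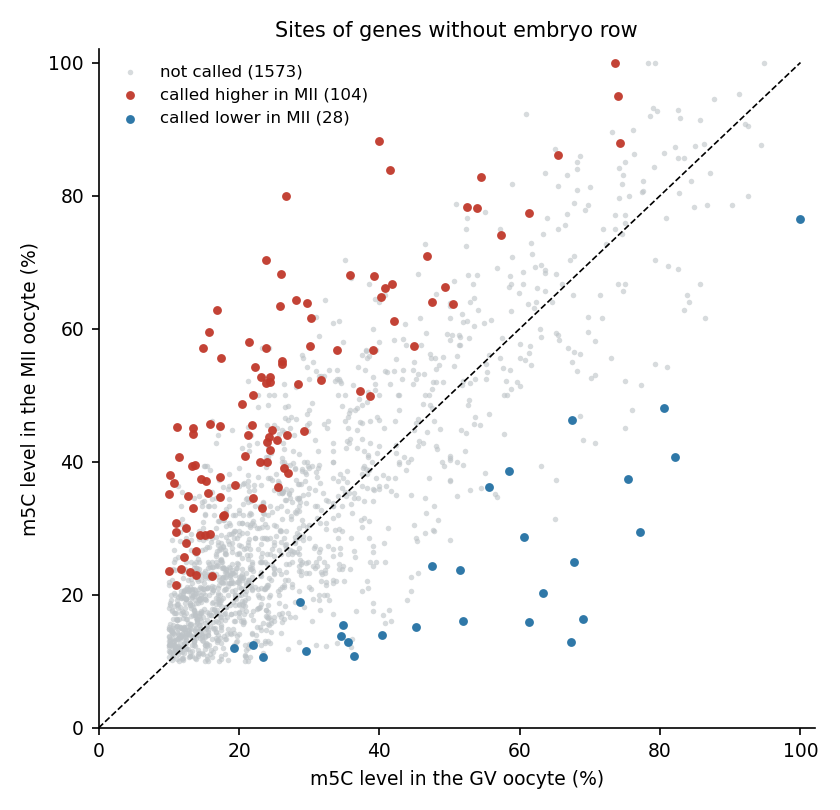
Each point is 1 of the 1705 sites, placed by its m5C level in the GV oocyte (horizontal) and the MII oocyte (vertical), in percent; the colours mark sites called by Fisher's exact test with an adjusted p under 0.05 and the dashed line marks equal levels. Most points lie above the line, and 104 sites were called higher and 28 lower in the MII oocyte. Of the called falls, 16 start from a GV level of 50% or more. The level limit of the lists keeps large falls from starting at a low GV level.

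The sites called higher rose by 6.71 to 53.4 points, with a median of 21.9 points. Med1, a subunit of the Mediator complex that links transcription factors to RNA polymerase, rose from 46.8% of 378 reads (41.9% to 51.9%) to 70.9% (66.2% to 75.2%; Fisher's exact test, adjusted p = 9.08e-10). Heatr1, a factor of ribosomal RNA synthesis, rose from 13.4% (97 reads) to 45% (60 reads). Trim37, a ubiquitin ligase that limits centrosome numbers, rose from 11.4% to 40.7%. Heatr1 and Trim37 thus started near the limit of the list.

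The angiomotin family gene Amotl1, an adaptor of Hippo signalling, rose at a 3′ UTR site from 26.1% (138 reads) to 55.1% (118 reads; adjusted p = 6.77e-05 by the exact test). Cbll1, a ubiquitin ligase of the m6A writer complex, rose from 24.4% to 52.7%, and Ddr2, a collagen receptor kinase, from 39.2% to 67.9%. The largest rise, from 26.6% of 214 reads to 80% of 55 reads, was that of the long noncoding gene Gm11815. Its window also matched transcripts of 5 other genes, 4 of which had an embryo row, so the reads behind it cannot be assigned to it with certainty.

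The sites called lower were in 25 genes, and fell by 7.35 to 54.4 points, with a median of 26.0 points. At 16 of the 28 sites the GV level was 50% or more. The MII list holds no level under 10%, so a large fall can only start from a raised GV level. The share of all members at this GV level is not given here, so the 16 sites are not read as a pattern. Coverage was higher in the MII oocyte at 19 of the 28, and lower there at 73 of the 104 sites called higher. It was lower there at 67.4% of all members and at 73.5% of all shared sites. Whether coverage and calls go together was not tested. Glg1, a Golgi membrane glycoprotein, had 2 called falls. Its 3′ UTR site fell from 69% (58 reads, 56.2% to 79.4%) to 16.4% (67 reads, 9.42% to 27.1%; Fisher's exact test, adjusted p = 1.09e-07), and a CDS site fell from 55.6% (207 reads) to 36.3% (182 reads). Man2a1, a Golgi mannosidase that trims N-glycans, had 3 called falls, from 61.4% to 15.9% in the 5′ UTR and from 67.7% to 25% and 34.5% to 13.8% in the CDS.

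Other falls were found in signalling and chromatin genes. Ptk2b, a focal adhesion kinase also called PYK2, fell from 77.2% (57 reads) to 29.5% (78 reads; adjusted p = 1.52e-06 by the exact test). Smarcc1, a core subunit of SWI/SNF remodeling complexes, fell from 60.6% (142 reads) to 28.7% (94 reads), and Atn1, a transcriptional corepressor, from 75.5% to 37.3%. Atn1 had a window that also matched a transcript of 1 other gene. Spr, an enzyme of tetrahydrobiopterin synthesis, fell from 40.3% to 13.9%, and Nisch, which binds integrins, from 47.5% to 24.3%. The largest fall, chosen for naming after its value was seen, was at Dennd5a, a regulator of Rab GTPases, from 67.3% of 49 reads to 13% of 54 reads. Among the 28 called falls, 5 were in pseudogenes or had a window found in another gene.

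Rps27a, which encodes a fusion of ubiquitin with a ribosomal protein, fell from 22% (710 reads) to 12.5% (559 reads; adjusted p = 0.000209 by Fisher's exact test). Its pseudogene Rps27a-ps2 fell from 19.3% (425 reads) to 11.9% (385 reads), and the bases around the site were identical, as the sequences above show. Their values are therefore not independent. In the pseudogene Gm8730 the level fell from 28.7% (501 reads) to 18.9% (486 reads), and its window also matched transcripts of 4 other genes. One of them was Rplp0, the ribosomal stalk protein. Windows of 51 converted bases matched a transcript of another gene at 71 of the 1698 members that could be searched (4.18%), and at 2.39% and 4.40% of the comparison sites without and with an embryo row of their own. For 26 of the 71 sites, in 19 genes, a matching gene had an embryo row, and for 24 members in 14 genes embryo sites of another gene lay within the span of the gene on the same strand. A gene of this kind can be missing from the embryo list through the assignment of its reads to another gene, which was not tested.

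Genes with several sites showed how much the level varied within 1 mRNA. Among the 361 genes with 2 or more members the range between the lowest and the highest GV level had a median of 19.7 points, and in the MII oocyte it was 21.1 points. All members were higher in the MII oocyte in 144 of these genes and lower in 53. This was not counted over all genes with several shared sites, and is not read as agreement within genes. Dop1b, which takes part in endosomal sorting, had the most sites, 12, with GV levels of 10.5% to 35.5% (median 16.6%) and MII levels of 10.1% to 46.7% (median 24%). Its level was higher in the MII oocyte at 9 of 12 sites, none of which passed the test. Coverage at Dop1b was lower in the MII oocyte, with a median of 83.5 reads against 132.

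Lamc1, the laminin gamma 1 chain of basement membranes, had 11 sites over GV levels of 12% to 55.6%. It held both a called rise, in the 3′ UTR from 23.8% to 51.9%, and a called fall, in exon 5 from 23.4% to 10.6%. Its other 9 sites did not pass the test. In Cdkn1c, the imprinted inhibitor of cyclin-dependent kinases p57, 10 CDS sites lay within 1298 nt of the genome, none of them called. Neighbouring bases of Cdkn1c carried separate calls, with 83.8% and 65% at the first C and 47.1% and 50% at the C that follows it. In all, 37 pairs of members lay on adjacent bases, at which the stretch of unconverted reads cannot be told from 2 methylated bases.

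Utp20 had 9 sites in the CDS and a higher level in the MII oocyte at each, with medians of 27.9% and 38.9%. The 3 strongest of these lay nearest to the 5′ end, at GV levels of 74.5%, 63.6% and 87.6%, while the other 6 ran from 11.8% to 36.2%. Only the site in exon 46 passed the test, with 14.5% of 131 reads in the GV and 28.9% of 121 reads in the MII oocyte. Lrp1, a receptor of the low-density lipoprotein receptor family, was the deepest of the genes with many sites, with medians of 337 and 262 reads over 9 CDS sites. One Lrp1 site stood at 60.7% and 55.3%, and the other 8 between 10.1% and 30.5% in the GV oocyte. None of its sites passed the test. Lrpprc, a regulator of mitochondrial mRNA with 8 sites, was higher in the MII oocyte at all 8, none of them called. In Sik1, a salt-inducible kinase with 8 sites, the level was higher at 2.

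**Figure D3:**
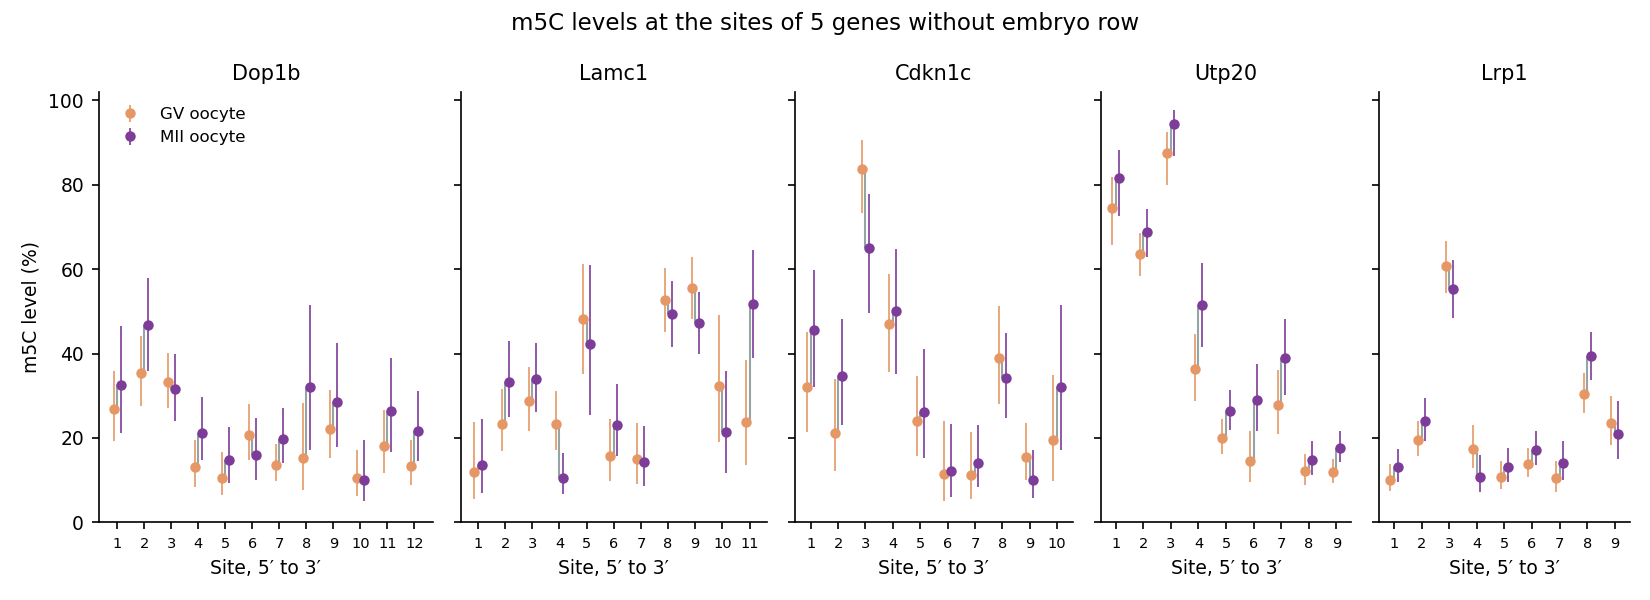
The m5C level in percent (vertical) is plotted for each site of Dop1b, Lamc1, Cdkn1c, Utp20 and Lrp1, ordered 5′ to 3′ along the mRNA, for the GV and the MII oocyte with 95% Wilson intervals that cover counting error only. Levels differ more between the sites of a gene than between the stages, and the first 3 sites of Utp20 stand above 60% in both oocytes.

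Coverage was lower in the MII oocyte at most members, with a median ratio of MII to GV coverage of 0.876 (0.860 to 0.892), against 0.867 at all shared sites. The ratio ran from 0.202 to 4.60. Since the libraries differ in depth, a ratio is read only against that of the other sites. Among the best sites of genes with 100 GV reads or more, the lowest ratios were those of Gm11815 (0.257), Zwilch (0.258), Rnf170 (0.313), Adcy1 (0.321) and Gm10553 (0.354). Zwilch is a part of the RZZ complex that acts in the spindle checkpoint at kinetochores. It had 120 GV and 31 MII reads, at levels of 63.3% and 74.2%. Adcy1, an adenylyl cyclase, had 196 and 63 reads.

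The highest ratio was 2.26, that of Fscn1, an actin-bundling protein, with 210 GV and 474 MII reads at levels of 20.5% and 22.2%. The next ratios were 1.36 for Cox8a, a subunit of cytochrome c oxidase, 1.26 for the septin Sept11, 1.24 for Dse, an epimerase of dermatan sulfate synthesis, and 1.23 for the GTPase Gnl1. None of these changed in level by the test.

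The gene lists below were defined by symbol. For each, the share of genes without an embryo row is given beside the 18.8% of all genes, with no test, since this share is what the rule used. Solute carriers, the transporters of small molecules across membranes, were missing from the embryo list at 29.1% (25 of 86 genes), and the deubiquitinases and proteasome at 4.23% (3 of 71). The median coverage of the best site was 112.5 reads for the solute carriers and 274 reads for the deubiquitinases and proteasome, and 143 reads for all genes. At 100 reads or more in both oocytes the order was not the same, with 2 of 45 solute carriers and 3 of 64 deubiquitinase and proteasome genes missing, against 207 of 3336 (6.21%) over all genes. The shares of the lists thus move with coverage, and they are not read as traits of the gene groups. Over all members, 67.3% of the sites were higher in the MII oocyte, 6.10% were called higher and 1.64% were called lower. The counts of sites within each list stand against these shares, were not tested between lists and are not read as traits either.

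**Figure D4:**
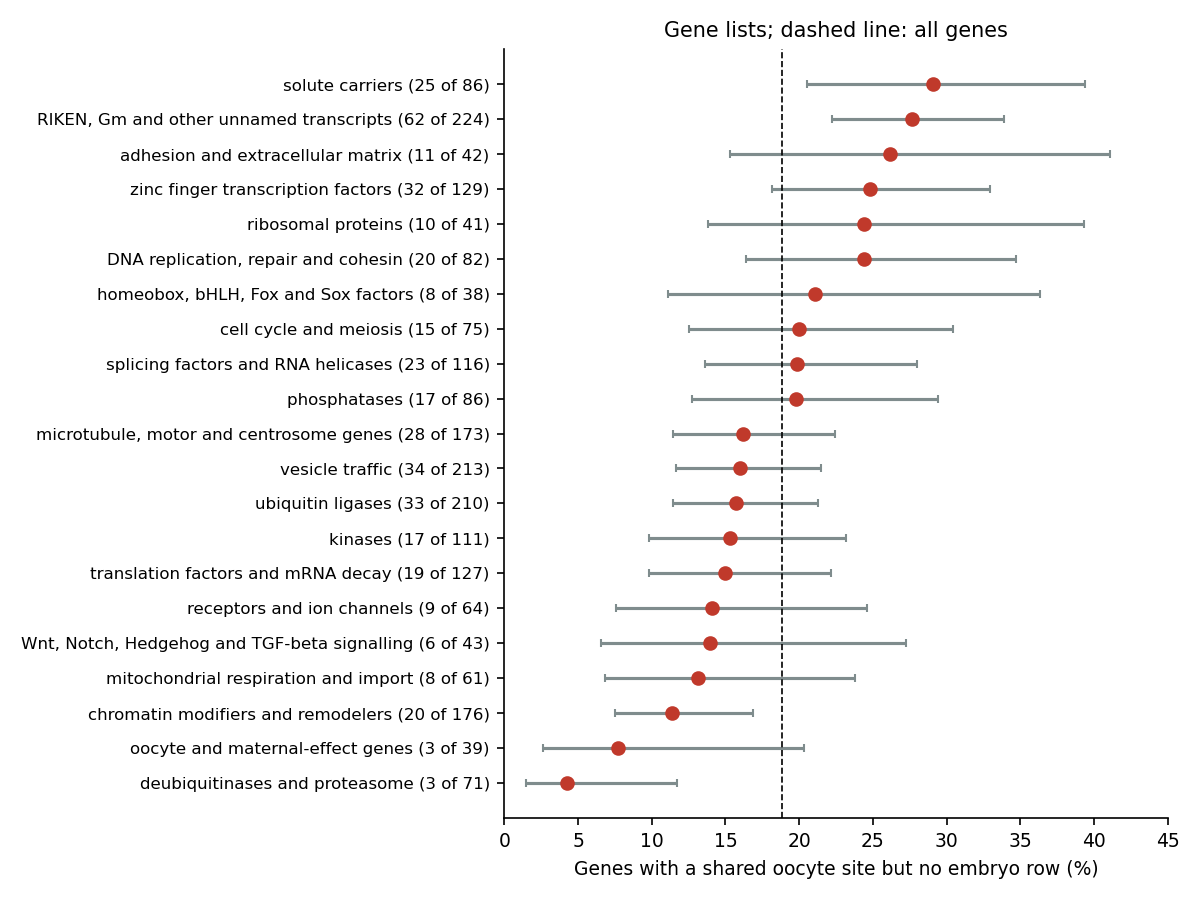
Points give the share of genes with a shared oocyte site that had no embryo row for each gene list, in percent, with 95% Wilson intervals and the counts in brackets, and the dashed line marks 18.8%, the share over all genes. Most intervals include the line, that of the solute carriers and of the RIKEN and Gm transcripts lies above it, and those of the chromatin genes and of the deubiquitinases and proteasome lie below it; coverage differs between the lists, and at 100 reads or more 2 of 45 solute carriers have no embryo row.

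Of the oocyte and maternal-effect genes, which act in the egg and the early embryo, 3 of 39 (7.69%, 2.65% to 20.3%) were members, an interval that includes the share over all genes, and their median best coverage was 1034 reads. The 3 genes were Figla, Oas1f and Oas1b. Figla is the oocyte transcription factor that drives the zona pellucida genes, and had 11.6% of 198 reads in the GV and 19.8% of 106 reads in the MII oocyte. Oas1f and Oas1b, of the oligoadenylate synthetase family, had 13.6% and 24%, and 12.7% and 11.9%. Both came into the list by their symbol alone. The Oas1f window also matched a transcript of Oas1c, which had an embryo row, and Oas1b is annotated as a polymorphic pseudogene. Of 12 oocyte markers such as Gdf9, Bmp15 and Zp3, the GV list held called sites of 7, the MII list of 9 and the embryo list of 12, and none was a member. Of 12 granulosa and cumulus markers 0, 2 and 0 had one, with Amh and Cyp19a1 in the MII oocyte. The sperm protamine Prm2 was a member, with 25.6% of 43 reads and 20.6% of 34 reads, while the other 4 sperm markers had no called site in any list.

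Among transcription factors, 32 of 129 zinc finger genes (24.8%) and 8 of 38 homeobox, bHLH, Fox and Sox factors (21.1%) were members. The zinc finger list held Zfp36l2, which is an RNA-binding factor of mRNA decay needed for oocyte maturation, with 14.1% and 22.3%. Zbtb41 had 51.9% of 158 reads and 61% of 182 reads, and Zfp143 14.4% and 14.8%. Of the 51 zinc finger sites, 39 were higher in the MII oocyte and 2 passed the test. Stat2, the interferon signal transducer, rose from 54.5% (55 reads) to 82.8% (64 reads; adjusted p = 0.00956 by the exact test). Gata4 had 29.6% and 24.8%, and the oocyte-expressed forkhead gene Foxr1 31.5% and 20%. In this list 9 of 12 sites were lower in the MII oocyte, of which 1 was called, while 67.3% of all members were higher there. The listed genes Gata4, Stat2, Elk3 and Nfix belong to the GATA, STAT, ETS and NFI families, and not to the families that name the list.

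Genes of the cell surface varied between lists. Of the solute carrier sites, 31 of 47 were higher in the MII oocyte and 2 were called. Slc25a31, the germ cell ADP/ATP carrier, had 18.9% of 254 reads and 17.1% of 175 reads. Slc12a5, a potassium chloride cotransporter, had 17.6% and 25%. Among receptors and ion channels, 9 of 64 genes (14.1%) were members. Fgfr2, a fibroblast growth factor receptor, rose from 30.1% (93 reads) to 57.3% (75 reads; adjusted p = 0.00490 by the exact test), while Gpr1 had 66.4% and 75.6% and Gpr89 12.5% and 16.4%. Of the 9 sites of this list 8 were higher in the MII oocyte and 2 were called higher, against 67.3% and 6.10% of all members.

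In the Wnt, Notch, Hedgehog and TGF-beta list 6 of 43 genes (14%) were members. Bmpr1a, a receptor of bone morphogenetic proteins, had 31.2% of 231 reads and 33.3% of 84 reads, and the corepressor Tle1 10% and 21.4%. Of 16 sites 14 were higher in the MII oocyte, against 67.3% of all members, and 1 was called, that of Amotl1. In the adhesion and extracellular matrix list 11 of 42 (26.2%) were members. The collagen VI chain Col6a3 rose from 12.5% (128 reads) to 27.7% (137 reads), and the deepest Itgb3 site had 16.3% and 22.8%. In this list 2 of 40 sites were called higher and 1 lower, among them both called sites of Lamc1.

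Of the kinases, 17 of 111 (15.3%) were members, and of the phosphatases 17 of 86 (19.8%). Map4k4, a kinase of the stress pathway that acts on JNK, had 48.1% of 322 reads and 51.9% of 233 reads. Dyrk1b had 16.8% and 24.4%, and the diacylglycerol kinase Dgkz 17% and 20%. The levels of the kinase sites were split, with 26 of 47 higher in the MII oocyte and 2 called. Ppp2r5e, a regulatory subunit of protein phosphatase 2A, rose from 13.8% to 26.6%, and Ptpdc1 had 21.4% and 32%. Of the 26 phosphatase sites 20 were higher in the MII oocyte and 1 was called.

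Cell cycle and meiosis genes were members at 20% (15 of 75) and none of their 28 sites passed the test. Besides Fzr1 and Cdkn1c, Cdc45 of the replicative helicase had 11.1% of 189 reads and 18.4% of 174 reads. In the list of DNA replication, repair and cohesin genes 20 of 82 (24.4%) were members and 1 of 35 sites was called higher. Clspn, the adaptor of the replication checkpoint, had 29.7% of 391 reads and 30.2% of 407 reads, and its intervals of 25.4% to 34.4% and 26% to 34.9% overlapped almost fully. Rad54l2 had 20.7% and 19%.

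Of the chromatin modifiers and remodelers 20 of 176 genes (11.4%) were members, and their median best coverage was 185 reads. At 100 reads or more in both oocytes this was 5 of 120 genes, against 207 of 3336 over all genes. Beside Med1, Atrx and Smarcc1, the nucleosome remodeling subunit Bptf had 14.7% of 434 reads and 17.4% of 327 reads. Of the 40 chromatin sites 3 were called higher and 1 lower. Of 173 microtubule, motor and centrosome genes 28 (16.2%) were members, a list that takes in Map4k4 by its symbol. Akap8, an anchoring protein of protein kinase A, rose from 42.1% (183 reads) to 61.1% (198 reads; adjusted p = 0.00242 by the exact test), and Tubgcp5 of the gamma-tubulin ring had 19.1% and 18.9%. In this list 5 of 51 sites were called higher, against 6.10% of all members.

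For genes of RNA and protein synthesis the shares were 15% in translation factors and mRNA decay (19 of 127), 19.8% in splicing factors and RNA helicases (23 of 116) and 24.4% in ribosomal proteins (10 of 41). None of the 24 sites of the first list passed the test, including Pum3 with 32.4% and 29.9%. This list held genes of RNA methylation too, among them the m5C methyltransferases Nsun3 and Nsun5 and the m6A methyltransferase subunit Mettl14, all with under 100 reads. Ptbp2, a splicing repressor, rose from 15.1% (331 reads) to 28.9% (235 reads; adjusted p = 0.00117 by the exact test), and the helicase Dhx38 had 31.9% of 257 reads and 35.3% of 269 reads. The ribosomal protein list takes in 2 ribosomal protein kinases, Rps6kb1 and Rps6kc1, by symbol. Rps12 had 15.5% and 12.6%, but its window also matched transcripts of 17 other genes. The mitochondrial ribosomal protein Mrps2 had 22.8% and 30%. Calls were made for 3 higher and 1 lower of 36 splicing sites, and for 1 higher and 1 lower of 12 ribosomal sites.

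Mitochondrial respiration and import genes were members at 13.1% (8 of 61). Opa1, a GTPase of inner membrane fusion, had 26.5% of 151 reads and 22.2% of 185 reads, and Ndufc2 of complex I 16% and 16.9%. None of the 12 sites of this list, Ndufa2 included, passed the test. Of the ubiquitin ligases 33 of 210 (15.7%) were members. Of their 49 sites 6 were called higher and none lower, against 6.10% and 1.64% of all members. Trim33, which acts in TGF-beta signalling, rose from 45% (269 reads) to 57.4% (223 reads; adjusted p = 0.0357 by the exact test), and Rnf139 had 16.7% and 14.4%. The deubiquitinase and proteasome members were Psmb3 with 17% and 13.1%, Usp48 with 12% and 17.4% and Psmd7 with 66.8% of 208 reads and 57.1% of 231 reads. None of these 3 sites passed the test, and each had 100 reads or more in both oocytes.

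Of the vesicle traffic genes 34 of 213 (16%) were members. The small GTPase Arl1 of the Golgi had 16.8% of 566 reads and 18.6% of 440 reads, the translocation protein Sec62 rose from 11.1% (262 reads) to 21.5% (163 reads), and Rabep1 had 21.2% and 26%. Of the 46 vesicle traffic sites 1 was called higher and 1 lower. Of the RIKEN, Gm and other unnamed transcripts 62 of 224 (27.7%) were members. Of their 78 sites 57 were higher in the MII oocyte and 9 were called higher, against 67.3% and 6.10% of all members. Gm9824 rose from 38.7% (393 reads) to 49.8% (291 reads; adjusted p = 0.0241 by the exact test). Gm15500 had 10.9% and 11.6%, with a window that also matched Rpl5. Genes in no list were missing at 19.2% (617 of 3210). Over the 21 lists the median level difference of the members ran from -3.84 points for the deubiquitinases and proteasome (3 sites) and -3.72 points for the homeobox, bHLH, Fox and Sox factors (12 sites) to 15.8 points for the receptors and ion channels (9 sites), against 3.76 points over all members.

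The members' place in the mRNA differed in part from that of the comparison sites. In the CDS lay 70.7% of the members (1205 sites; 95% Wilson interval 68.5% to 72.8%), against 64.9% where the gene alone was in the embryo list and 72.6% where the site was. The 3′ UTR held 13.9% of the members, against 23.4% and 14.7%, and the 5′ UTR held 11.6%, against 10.5% and 11%. The 3′ UTR and CDS shares of the members did not overlap in their intervals with those of the sites whose gene alone was in the embryo list (12.3% to 15.6% against 22.3% to 24.6% for the 3′ UTR). At 100 reads or more in both oocytes the CDS held 73.3% of the members and 72.8% of those sites. The 3′ UTR then held 12.8% (9.58% to 16.8%) and 18% (16.4% to 19.7%). Both pairs of intervals overlapped at this depth. Other exons, outside a CDS or UTR, held 3.64% of the members (2.85% to 4.63%), against 0.940% and 1.46%. When the CDS was divided into 3 equal parts, 31% of the CDS members lay in the 5′ part (28.5% to 33.7%), against 32.8% and 37.2% (35.8% to 38.6%). The GV and MII medians were 23.9% and 28.6% for members of the 5′ UTR, 22.2% and 26.5% for those of the CDS, and 24% and 28.8% for those of the 3′ UTR.

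Type II sites made up 5.22% of the members (89 sites; 4.26% to 6.38%), against 6.69% and 5.46% of the comparison sites. Their median levels were 26.2% and 29.6%, and those of the 1616 Type I members were 22.9% and 26.9%. The deepest Type II member was that of Sh3glb2, an endophilin, with 35.4% of 226 reads and 38.5% of 205 reads. Etfb, the electron transfer flavoprotein beta subunit, had 27% and 26.1%, and the importin Ipo5 13.8% and 14.9%. Higd2a, a respiratory chain assembly factor, rose from 17.2% (151 reads) to 34.8% (141 reads; adjusted p = 0.00665 by the exact test). It was 1 of 2 called rises among the 89 Type II members, and 3 were called lower, against 78 and 11 of all 765 shared Type II sites.

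The bases after Type I members were G-rich to the degree found at other sites. At the second base after the site 68.7% of the members had a G, against 70.1% and 68.4% of the comparison sites, and the mean number of G in the 4 bases after the site was 2.19 ± 0.848 (SD over 1616 sites), against 2.24 and 2.25. The median GV level of the members was higher with more G, from 15.9% with no G (26 sites) to 26.4% with 4 G (85 sites), and the same order held over all shared sites, from 16.7% to 23%. Predicted folds of the bases around the site had a median energy of -30.5 kcal/mol, against -30.4 and -30.7 kcal/mol, and the site was paired in 59.9% of the members, against 56% and 59.1%. A fold is a computed structure of a naked fragment and not a measurement.

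**Figure D5:**
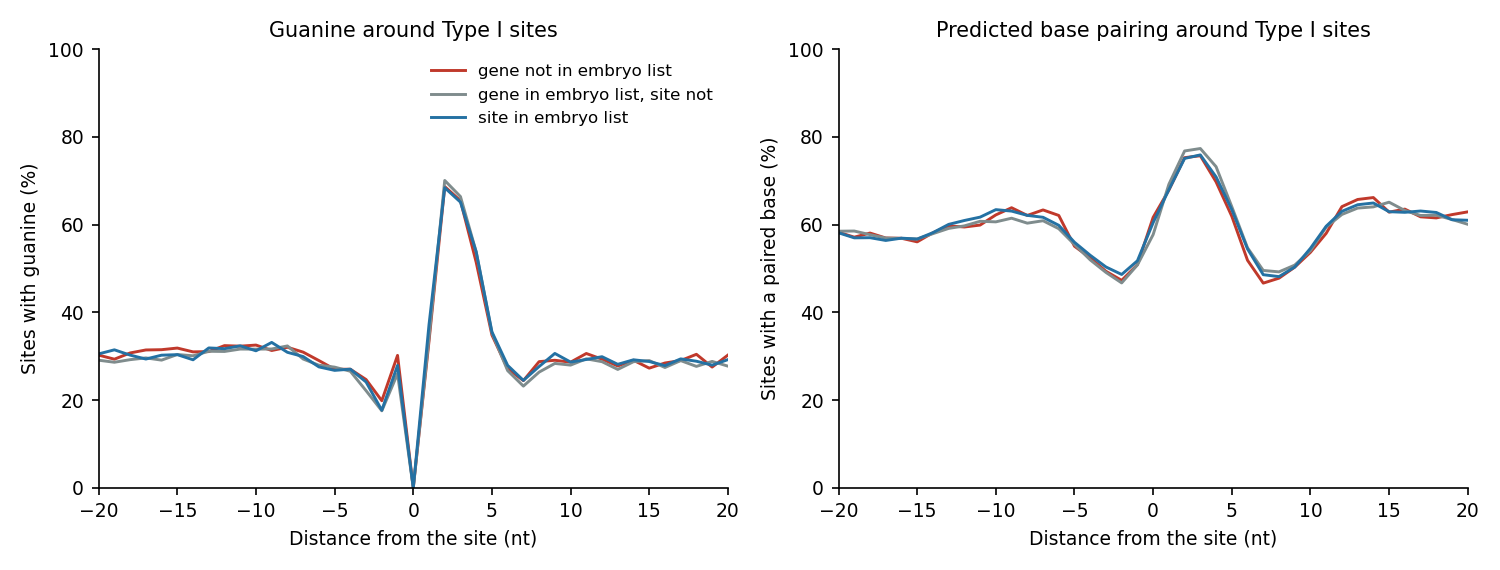
The share of Type I sites with a guanine (left) and with a base that is paired in the predicted fold (right) is plotted in percent against the distance from the site in nt, for members and the other shared sites by embryo status. The curves lie over each other, with a guanine at the second base after the site in 68.7% of the members.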

How the data were processed

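Site lists of 3 RNA bisulfite libraries were analysed. The submitters' processing notes name cutadapt 1.13 and Trimmomatic 0.36 for trimming, and reads were aligned to converted mm10 (GRCm38) references with HISAT2 and Bowtie2 2.2.9. The authors deposited coverage as a count of C and T reads, the m5C level as a fraction, given here in percent, and a p-value from the authors' per-gene binomial test of conversion, used here only to check the lists. The lists held no site under 20 reads, a level of 10% or 5 unconverted reads. Depth limits precision: 50 reads or fewer give intervals of many points, which cover counting error only. The embryo list differs from that in the study's supplement. Unconverted reads were taken as level times coverage.

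The members, gene lists and tests were chosen with earlier results of these data known. Each shared site was tested by a two-sided Fisher's exact test of GV against MII reads with Benjamini-Hochberg adjustment over 12954 sites and a threshold of 0.05, tested on simulated data. Medians have 95% order-statistic intervals over sites and shares 95% Wilson intervals. Symbols and regions came from GENCODE M21, in the order CDS, 5′ UTR, 3′ UTR and other exon. Type II meant CUCNA from the site on. Windows of 50 bases on each side were folded with ViennaRNA 2.7.2, and 51 converted bases were searched in the transcripts of other genes. Tests used scipy 1.17.1 under Python 3.11.15 and figures matplotlib 3.10.9, with tables held in pandas 2.3.3 and numpy 2.4.6. Genome bases were read by pysam 0.24.0 and samtools 1.23.1.

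Named members were the 10 deepest genes, the 5 genes with the most sites, the 6 largest called rises and the 6 largest called falls and the 6 highest levels at 50 reads or more in both oocytes, the 5 deepest Type II sites, the 5 lowest and the 5 highest coverage ratios, and the 3 deepest members of each of 21 gene lists. One member that this rule names is not reported here. Members with a role of interest that were named after their values were seen are Dennd5a, Man2a1, Lrpprc, Sik1, Prm2, Nsun3, Nsun5 and Mettl14, and the second Glg1 site. Alternatives tried were limits of 50 and 100 reads and of a 20% level, thinning to 20 reads, reads divided by 5, 1 site per gene, the motif CUCCA and matching by symbol.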

Additional observations from a re-analysis of the deposited data

How the results depend on the processing

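Matching genes by symbol gave the same 1705 sites and 1014 genes. With 50 reads or more in both oocytes there were 852 members in 511 genes (11.5% of genes), 18 of them called lower (1.01% of all shared sites left were), 4.23% Type II and 74.9% in the CDS. With 100 reads there were 329 in 207 genes (6.21%), 51 called higher and 5 lower with the adjustment redone (32.8% and 1.05% of all), 3.34% Type II and 73.3% in the CDS. At a level of 20% or more there were 898 in 647 genes (17.3%), 13 called lower (1.29% of all), a median difference of 4.42 points and 6.57% Type II. Fewer sites pass such limits by construction. No member was called higher or lower by Fisher's exact test with sites thinned to 20 reads (0 and 0, with 61 and 21 at an unadjusted p under 0.05) or with reads divided by 5 (0 and 0, with 4 and 4). Of all shared sites, 1 and 87 were then called higher and 0 and 3 lower. The share over all shared sites at the unadjusted threshold was not counted, so those member counts are not read as a result. Calls at any depth thus rest on the reads being independent molecules, which was not tested. The other 21 of 44 alternative values stayed within 1.5 times the count or within the interval of the value. Without sites whose window matched another gene, an alternative chosen after seeing the data, 1634 members in 966 genes had 96 sites called higher and 23 lower. No paired analysis was possible because each stage has 1 library, and none could be left out. Missing rows cannot be read as missing methylation.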
